A study of Mus musculus with 65 samples.

Results

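The genes described here encode the nuclear subunits of respiratory complexes II, III, IV and V, measured in single HSD2 neurons. Members were taken by name: Sdha to Sdhd, every gene whose name starts with Uqcr, Cyc1, every gene whose name starts with Cox followed by a digit from 4 to 8, and every gene whose name starts with Atp5. This gave 39 of 11875 genes, of which 4 belong to complex II, 8 to complex III, 13 to complex IV and 14 to complex V. This rule uses names and no measured values, but it was set with earlier results of these data known. A few names in the set, 3 in all, are not core subunits. Cox7a2l takes part in joining complexes III and IV into larger assemblies. Atp5s and Atp5sl, the latter named Dmac2 in the GENCODE annotation, are placed in complex V by their names alone. All are counted with the complex their name gives.

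The 65 cells came from the nucleus of the solitary tract of male mice of mixed strain that carried Hsd11b2-Cre, which drives the recombinase from the gene of 11-beta-hydroxysteroid dehydrogenase type 2, and the Ai9 reporter, a lox-stopped tdTomato. The fluorescent cells were picked by hand, so every group shares the driver and the reporter, and any cell in which Cre had ever acted could be red. Mice had eaten standard chow (33 cells) or a low-sodium diet (32 cells), and the sources used here do not give their age. For all cells the tissue label is the nucleus of the solitary tract, whereas the protocol text names the Arc-ME as the digested tissue. No label names an animal, so each diet is 1 sample, cells are not replicates of it, and no test between diets was possible.

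The electron transport chain sits in the inner mitochondrial membrane. Complex II passes electrons from succinate to ubiquinone and is also an enzyme of the citric acid cycle. Complex III passes them on to cytochrome c, complex IV to oxygen, and complex V uses the resulting proton gradient to make ATP. Neurons depend on this route to pay for ion pumping and firing.

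Levels are log2(CPM + 1), where CPM are scaled read counts, and an SD is the spread between cells. Reads over the listed genes, recovered from the spacing of low values in each cell, ran from 50080 to 5323461 per cell. Of the 32 low-sodium cells, 9 had CPM that summed to 1393471 to 2170050, whereas the other 23 and all chow cells summed to 754874 to 1147326. A limit of 1200000 divides them, and they are called high-sum and usual-sum cells. The level of any gene in the high-sum cells depends on a scaling total that is not known. At least 3 of 8 neuronal markers and at least 3 of 5 HSD2 markers exceeded 10 CPM in all 65 cells, and Hsd11b2 itself was above 0 in all 65. Non-neuronal markers passed the same limit in 33 cells, of which 18 were chow, 13 usual-sum and 2 high-sum cells.

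Nearly all members were expressed by every neuron. Transcripts of 34 of the 39 were above 0 in all 65 cells, and Sdhd was above 0 in 64. The catalytic beta subunit of the ATP synthase, Atp5b, had the highest level of the set at 10.66 ± 0.91 (SD, n = 65 cells), and the alpha subunit that forms the catalytic head with it, Atp5a1, had 9.97 ± 0.57. Per kilobase of transcript, the scale on which genes can be compared, Atp5b had a mean of 1024 CPM, the complex IV genes Cox4i1, Cox8a and Cox6a1 had 862, 770 and 631 CPM, and Atp5a1 had 437 CPM. At the low end of the genes found in all 65 cells stood Sdhc, a membrane anchor of complex II, with 64.1 CPM per kilobase.

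In complex II, the flavoprotein subunit Sdha had a level of 9.42 ± 0.58, the iron-sulfur subunit Sdhb 8.50 ± 0.78, and the membrane anchors Sdhc and Sdhd 7.51 ± 0.69 and 7.19 ± 1.44. Complex III held Uqcrc1 (9.14 ± 0.90) and Uqcrc2 (8.49 ± 0.60), the core proteins, Cyc1 (8.53 ± 0.77), the cytochrome c1 subunit, and Uqcrfs1 (8.49 ± 0.74), the Rieske iron-sulfur protein. Its small accessory subunits Uqcrh, Uqcr10, Uqcrq and Uqcr11 had 7.89 ± 0.90, 7.56 ± 1.04, 7.41 ± 1.03 and 7.15 ± 1.02. The order within a complex on this scale reflects transcript length as well as abundance.

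In complex IV, whose catalytic subunits are encoded by mitochondrial DNA and are not among these genes, Cox4i1 had the highest level at 9.06 ± 0.91. It was followed by Cox8a (8.34 ± 1.10), Cox5a (8.26 ± 0.87), Cox6a1 (8.16 ± 1.02), Cox6b1 (8.10 ± 0.94), Cox7b (7.79 ± 0.85), Cox7a2 (7.69 ± 0.88), Cox5b (7.57 ± 0.98), Cox6c (7.51 ± 1.02), Cox7a2l (7.10 ± 0.65) and Cox7c (5.39 ± 1.12). Forms of the same subunit were unequal. Cox6b1 was in all 65 cells, while the form best known from testis, Cox6b2, had a mean of 0.66 ± 1.58 and was above 0 in 11 cells (16.9%, exact binomial 95% interval 8.76 to 28.3%). Cox7a2 was in all 65 cells, while the heart and muscle form Cox7a1 had a mean of 0.78 ± 1.54 and was above 0 in 15 cells (23.1%, interval 13.5 to 35.2%).

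Complex V below its catalytic pair held the rest of the soluble part, with Atp5c1 (gamma) at 8.79 ± 0.62, Atp5d (delta) at 8.51 ± 0.75 and Atp5e (epsilon) at 7.02 ± 1.10. Of the genes for the membrane ring of subunit c, Atp5g3 had 8.05 ± 0.91 and Atp5g1 7.42 ± 0.94. Atp5g3 exceeded Atp5g1 within a cell by a median log2 ratio of 0.74 over 65 cells, with a range of -1.00 to 1.68. The stalk subunits Atp5o and Atp5h had 8.14 ± 0.95 and 7.64 ± 0.75, and the membrane-part subunits Atp5j2, Atp5k and Atp5l had 7.23 ± 0.88, 6.46 ± 1.00 and 5.81 ± 0.94. Atp5sl and Atp5s were at 5.41 ± 2.56 and 4.23 ± 2.53, and were above 0 in 56 and 51 cells. For 9 members (Cox5b, Cox6c, Cox7c, Atp5c1, Atp5g1, Atp5h, Atp5k, Atp5l and Atp5o) another transcript in the GENCODE set matched at least 40% of the length at 95% identity or more, so their levels are uncertain.

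Promoters are shown because letters shared by members that were lower in the low-sodium group would be a feature that a choice by diet difference did not use. For each complex the gene with the most negative diet difference among those with an entry is printed. Cox6a1, which holds NRF1 and GABPA motifs, and Atp5b, the member with the highest difference in the high-sum cells, were added. The reason above does not hold for these additions: Cox6a1 is printed for its letters, and Atp5b was not lower over all cells (difference 0.03). The sequences are from RefSeq on GRCm38.p6, 5′ to 3′ on the gene's own strand, start at 250 bases before the RefSeq start and stop before the first base of any protein-coding GENCODE transcript of the gene. They cover chr4:140961021-140961202, plus strand, for Sdhb, chr10:80406831-80407071, minus strand, for Uqcr11, and chr19:7217617-7217866, minus strand, for Cox8a. They cover chr5:115348982-115349208, minus strand, for Cox6a1, chr5:108434449-108434649, minus strand, for Atp5k, and chr10:128083057-128083272, plus strand, for Atp5b. Capitals mark a match to 1 of 5 motifs.
Sdhb: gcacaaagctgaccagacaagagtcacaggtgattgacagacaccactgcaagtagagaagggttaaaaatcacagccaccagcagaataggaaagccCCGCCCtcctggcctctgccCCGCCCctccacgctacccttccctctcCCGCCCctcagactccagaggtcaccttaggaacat
Uqcr11: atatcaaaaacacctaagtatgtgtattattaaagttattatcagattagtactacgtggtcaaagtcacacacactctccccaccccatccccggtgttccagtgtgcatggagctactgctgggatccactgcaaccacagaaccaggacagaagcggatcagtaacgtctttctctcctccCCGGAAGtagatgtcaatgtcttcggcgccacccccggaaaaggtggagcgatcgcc
Cox8a: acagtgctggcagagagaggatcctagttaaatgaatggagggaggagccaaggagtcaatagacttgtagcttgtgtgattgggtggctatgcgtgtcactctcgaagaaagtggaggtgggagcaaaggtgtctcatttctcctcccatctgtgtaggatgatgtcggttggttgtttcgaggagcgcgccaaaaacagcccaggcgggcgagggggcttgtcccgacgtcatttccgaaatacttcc
Cox6a1: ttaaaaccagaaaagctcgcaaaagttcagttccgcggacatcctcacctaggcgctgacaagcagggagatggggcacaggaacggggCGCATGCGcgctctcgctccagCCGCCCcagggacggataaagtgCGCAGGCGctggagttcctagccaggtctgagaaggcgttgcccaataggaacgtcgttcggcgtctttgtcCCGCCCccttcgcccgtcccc
Atp5k: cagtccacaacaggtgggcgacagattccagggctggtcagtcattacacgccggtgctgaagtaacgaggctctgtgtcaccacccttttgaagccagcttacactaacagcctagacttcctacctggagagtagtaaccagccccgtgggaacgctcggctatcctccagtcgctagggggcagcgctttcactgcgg
Atp5b: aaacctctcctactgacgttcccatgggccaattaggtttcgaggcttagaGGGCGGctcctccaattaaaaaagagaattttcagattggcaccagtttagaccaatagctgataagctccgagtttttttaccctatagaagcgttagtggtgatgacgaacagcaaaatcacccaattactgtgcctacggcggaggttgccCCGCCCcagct

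The motifs were searched on both strands of the 250 bases before the start in the 30 members with an entry. The NRF1 motif CGCNTGCG was in 6 of 30 members (20%), against 15.3% of 8882 measured genes with an entry and 6.94% of all 27025 promoters. The GABPA motif CCGGAAG was in 8 (26.7%, against 13.8% and 7.05%). NRF1 and GABPA are transcription factors known for driving nuclear genes of the respiratory chain. Either motif was in 10 members (33.3%), against 26.7% of measured genes, and both were in 4, namely Sdhd, Cox6a1, Atp5h and Atp5l. The SP1 motif GGGCGG was in 8 members (26.7%), against 60.7% of measured genes and 32.9% of all promoters. The ESRRA motif AAGGTCA was in 2 (6.67%, against 2.76% and 4.05%) and the YY1 motif AAGATGGC in 0 (against 2.11% and 1.59%).

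In the printed stretches, Sdhb held 3 SP1 matches, Uqcr11 held 1 GABPA match from base 66 to base 60 before the start, and Cox8a held none of the 5. Cox6a1 held 2 NRF1 matches, from base 161 to base 154 and from base 116 to base 109, and 2 SP1 matches. Its GABPA match and the NRF1 match of Atp5k lie after the printed stretch, and Atp5b held 2 SP1 matches. Of the genes printed for their diet differences, Sdhb and Uqcr11 held matches in these stretches, while Cox8a and Atp5k held none. Whether the letters relate to the diet difference was not tested.

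Over all cells, the respiratory chain genes were lower in the low-sodium group. Of the 37 members with a mean of at least 1, which leaves out Cox6b2 and Cox7a1, 34 had a lower mean log2(CPM + 1) than in chow, and the median difference was -0.59. Over the 10726 genes with such a mean the median difference was -0.12, and 57.9% were lower. A difference of -0.5 or beyond was found for 26 of the 37 members, where 25.2% of all genes had one, and 0 members were higher by 0.5 (16.1% of genes). The median was -0.43 in complex II, -0.53 in complex III, -0.65 in complex IV and -0.55 in complex V. The members' mean level per cell was 8.03 ± 0.40 in 33 chow cells and 7.51 ± 0.69 in 32 low-sodium cells, so that the gap was smaller than the SD of the low-sodium cells and larger than that of the chow cells. Members with short transcripts had the more negative diet differences. The 12 members of up to 600 bases had a median of -0.75 and 148 genes of that length, members included, had -0.60. From 600 to 1000 bases, 10 members had -0.60 and 542 genes -0.47, from 1000 to 2000 bases 11 members had -0.45 and 2197 genes -0.27, and from 2000 to 4000 bases 4 members had -0.19 and 4192 genes -0.10. Across the 37 members the Spearman correlation of the diet difference with length was 0.81, and across 10425 genes it was 0.26.

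The gap was smaller without the 9 high-sum cells. The median difference was -0.27, with 36 of 37 members lower (56.9% of all genes, with a median of -0.09). Only 4 members remained at -0.5 or beyond, where 23.5% of genes were: Uqcrc1, Cox8a, Sdhd and Atp5s. By complex the medians without the high-sum cells were -0.35, -0.24, -0.32 and -0.20 for II, III, IV and V. The 33 cells with non-neuronal markers were not spread evenly: astrocyte markers (8 of 8 measured) passed in 12 chow, 5 usual-sum and 0 high-sum cells, with summed CPM of 0 to 4019, 0 to 1102 and 0 to 1056. Oligodendrocyte markers (7 of 8) passed in 12, 11 and 2 cells, with sums of 0 to 8135, 44.7 to 1396 and 17.1 to 15520. When these 33 cells were left out, the members' median difference was -0.78, where all genes had -0.09. The high-sum cells were then 7 of 17 low-sodium cells, against 9 of 32 before. If the high-sum cells were left out too, the median was -0.32 for members and -0.14 for all genes.

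**Figure D1:**
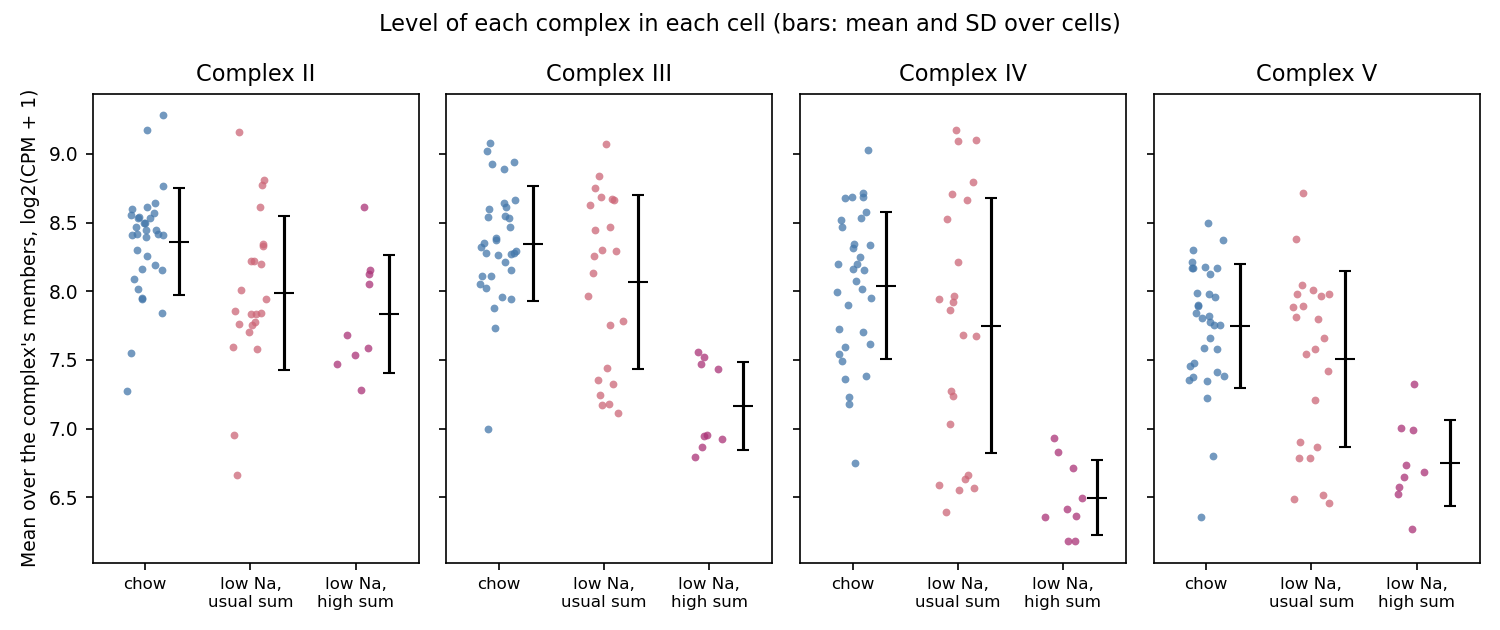
Mean log2(CPM + 1) over the members of each complex (vertical axis) in each of 33 chow, 23 usual-sum low-sodium and 9 high-sum low-sodium cells (points), with the mean and SD over cells as bars. In complex IV the 9 high-sum cells lie between 6.18 and 6.93, while usual-sum cells range from 6.40 to 9.17; in complex II the groups overlap widely.

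Sdhb showed the most negative difference in complex II. Its lowest, median and highest levels were 7.54, 8.82 and 9.81 in chow, 6.97, 8.58 and 10.01 in usual-sum and 6.54, 7.49 and 8.03 in high-sum cells. The groups overlap, and the highest high-sum cell is below the medians of both other groups. The diet difference of Sdhb was -0.67 over all cells and -0.40 without the high-sum cells. Sdha, with which Sdhb forms the succinate-oxidising head, had 9.57 ± 0.48 in chow and 9.27 ± 0.63 in low sodium. Sdhd had 7.47 ± 0.97 and 6.90 ± 1.77, and Sdhc 7.58 ± 0.62 and 7.45 ± 0.76. Each of these differences was smaller than the SD of both diets.

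In complex III the small subunits stood at the low end. Uqcr11, which sits at the periphery of the complex, had 6.33, 7.61 and 9.05 as lowest, median and highest level in chow, 5.54, 7.36 and 9.04 in usual-sum and 4.84, 5.41 and 6.64 in high-sum cells. Its diet difference was -0.86 and, without the high-sum cells, -0.44. Uqcr10, a small subunit near cytochrome c1, had 6.27, 8.11 and 9.20 in chow, 6.24, 7.68 and 9.37 in usual-sum and 5.45, 5.86 and 5.96 in high-sum cells. All 9 high-sum cells were below all 23 usual-sum cells and all 33 chow cells for this gene. On the deposited scale 10 of 10726 genes (0.0932%) had all high-sum cells below all usual-sum cells, and Uqcr10 was the only member among them. All high-sum cells were below all chow cells for 17 genes (0.158%), 2 of them members, Uqcr10 and Atp5g3. Uqcrq, long named a ubiquinone-binding protein, had 7.78 ± 0.70 in chow and 7.04 ± 1.19 in low sodium. Uqcrc2 was the member of complex III with a difference above 0, at 8.46 ± 0.58 and 8.53 ± 0.63, and this difference of 0.07 was -0.16 with every cell rescaled to a sum of 1000000.

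In complex IV all 11 members with a mean of at least 1 were lower, by 0.30 to 0.87 on the log2 scale. Cox8a, a small membrane-spanning subunit, had 6.97, 8.79 and 10.30 in chow, 6.46, 8.23 and 10.39 in usual-sum and 6.38, 7.02 and 8.44 in high-sum cells. The groups overlap, the lowest high-sum cell lies below every usual-sum cell, and the highest lies above the usual-sum median. The diet difference of Cox8a was -0.87 and, without the high-sum cells, -0.57. Cox6a1 had 8.53 ± 0.78 in chow and 7.77 ± 1.10 in low sodium, Cox6c 7.88 ± 0.68 and 7.13 ± 1.17, and Cox6b1 8.42 ± 0.66 and 7.77 ± 1.08. Cox4i1, through which ATP inhibits the enzyme, had 9.35 ± 0.65 and 8.76 ± 1.04, and Cox7a2 7.95 ± 0.71 and 7.43 ± 0.97. Cox7a2l had the smallest difference, with 7.24 ± 0.62 and 6.94 ± 0.65. The rarely found forms Cox6b2 and Cox7a1 were above 0 in 8 and 10 chow, 3 and 5 usual-sum and 0 of 9 high-sum cells, and a count of 0 in 9 cells allows a share of up to 33.3%.

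In complex V, Atp5k, the small subunit e of the membrane part, had 5.53, 6.81 and 8.02 in chow, 5.07, 6.47 and 8.40 in usual-sum and 4.25, 4.89 and 5.54 in high-sum cells. Its difference was -0.78, and -0.30 without the high-sum cells. Atp5e had 7.39 ± 0.67 in chow and 6.63 ± 1.32 in low sodium, Atp5g1 7.75 ± 0.72 and 7.07 ± 1.02, and Atp5g3 8.37 ± 0.53 and 7.72 ± 1.10. All 9 high-sum cells were below all 33 chow cells for Atp5g3, with a highest level of 7.29 against a lowest of 7.45, as for 0.158% of all genes. At the other end Atp5sl, with 5.27 ± 2.70 and 5.54 ± 2.44, was higher by 0.27, which was -0.23 after thinning every cell to 50000 reads.

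**Figure D2:**
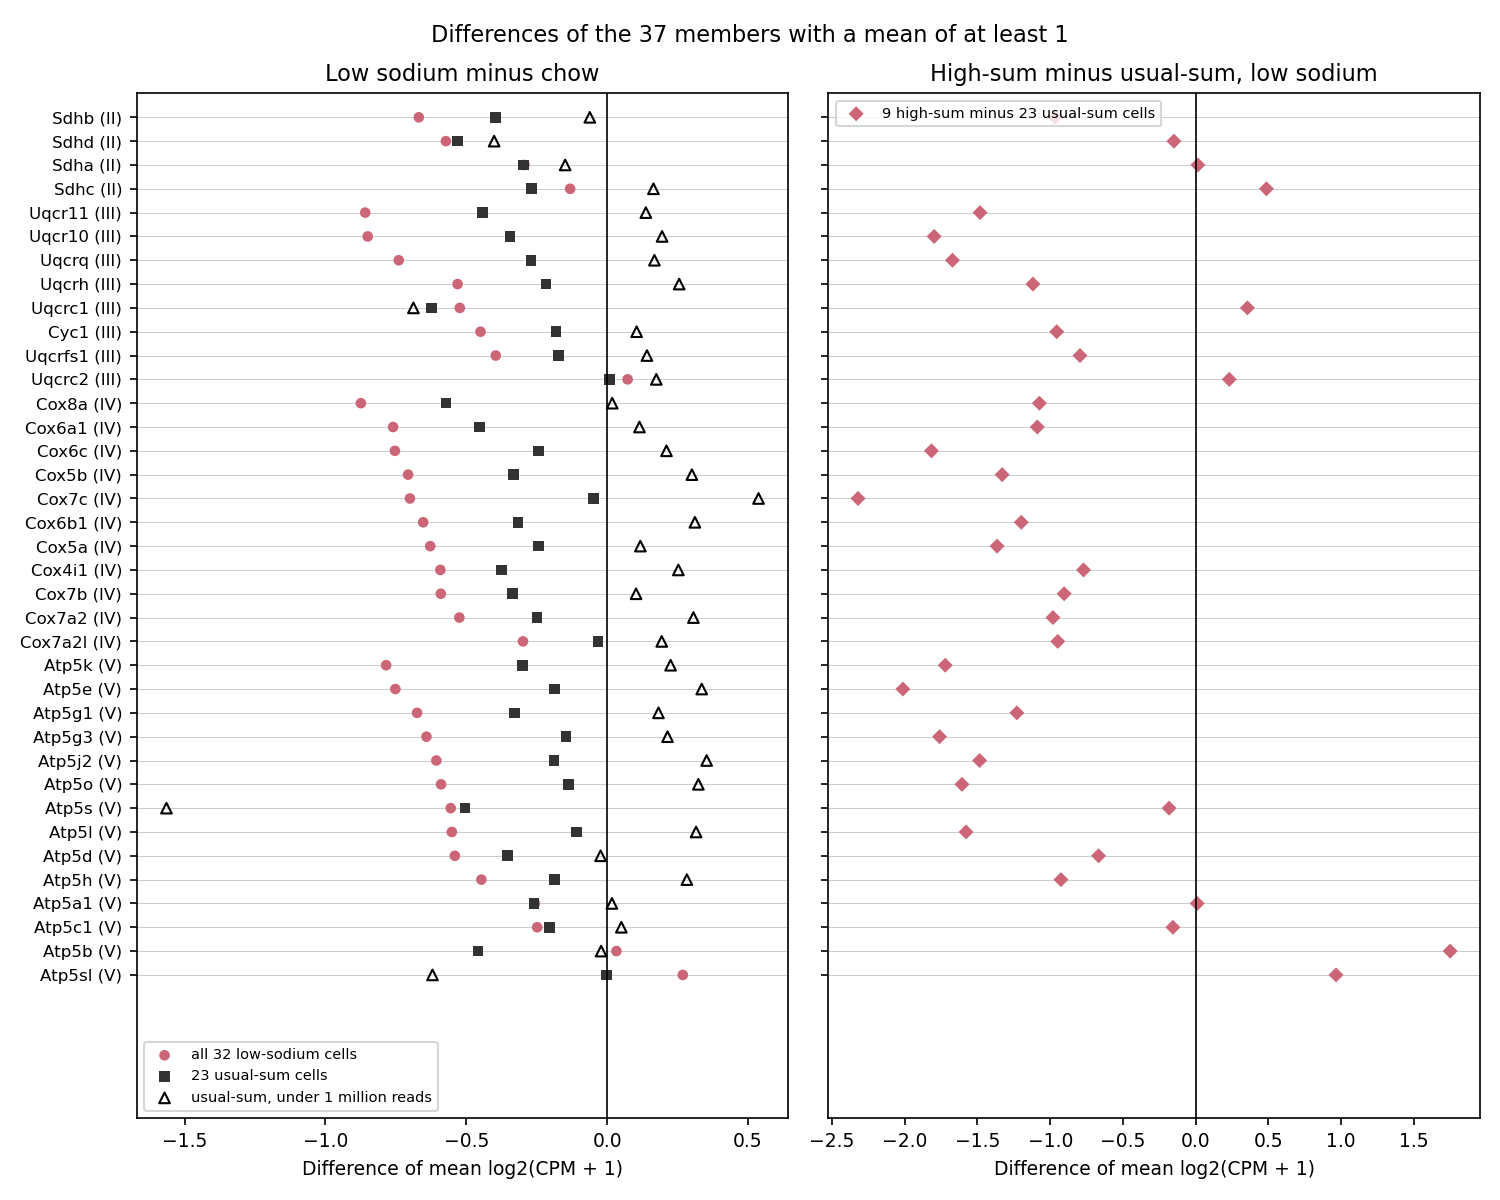
Difference of mean log2(CPM + 1) (horizontal axes) for the 37 members with a mean of at least 1, ordered by complex. Left, low sodium minus chow over all cells (circles), without the high-sum cells (squares) and without them among cells under 1000000 reads (open triangles); right, 9 high-sum minus 23 usual-sum low-sodium cells. The circles have a median of -0.59, the squares of -0.27 and the triangles of 0.17.

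Depth differed between the groups, and the members' levels varied with it. The median number of reads was 602662 in chow, 1089627 in usual-sum and 454517 in high-sum cells. Over the 56 usual-sum cells of both diets, the share of a cell's summed CPM that came from the 39 members had a Spearman correlation of -0.91 with its reads (-0.90 over 33 chow and -0.94 over 23 low-sodium cells). This is a description over cells of 2 samples, and both values of a cell come from the same library. The members' mean level, rather than their share, had a correlation of -0.80 with reads over the same 56 cells. For the levels of single genes, the median correlation with reads was 0.13 over all genes. Among members it ran from -0.95 for Cox8a and -0.91 for Cox4i1 and Cox5b to -0.20 for Sdha, -0.04 for Sdhc and 0.31 for Sdhd.

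Split at 1000000 reads, the difference between diets turned. Under it, 23 chow cells (median 309130 reads) had a members' mean of 8.23 ± 0.24 and 11 usual-sum low-sodium cells (median 418830 reads) had 8.30 ± 0.27. The median difference was 0.17, and 29 of 37 members were higher in low sodium, where 41.3% of all genes were. By 0.5 or more, 1 member was higher (17.1% of genes) and 3 were lower (32.9%). All 11 complex IV members were higher there, by 0.02 for Cox8a to 0.54 for Cox7c. The 8 that were lower included Uqcrc1 at -0.69, Atp5s at -1.56, Atp5sl at -0.62 and Sdhd at -0.40. At 1000000 reads or more, 10 chow cells had 7.57 ± 0.32 and 12 low-sodium cells 7.25 ± 0.45. There 35 of 37 members were lower (58.5% of genes), with a median of -0.34, but the low-sodium cells were again deeper, with a median of 3047916 against 1636082 reads. The part that depth plays in the diet difference was not tested.

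**Figure D3:**
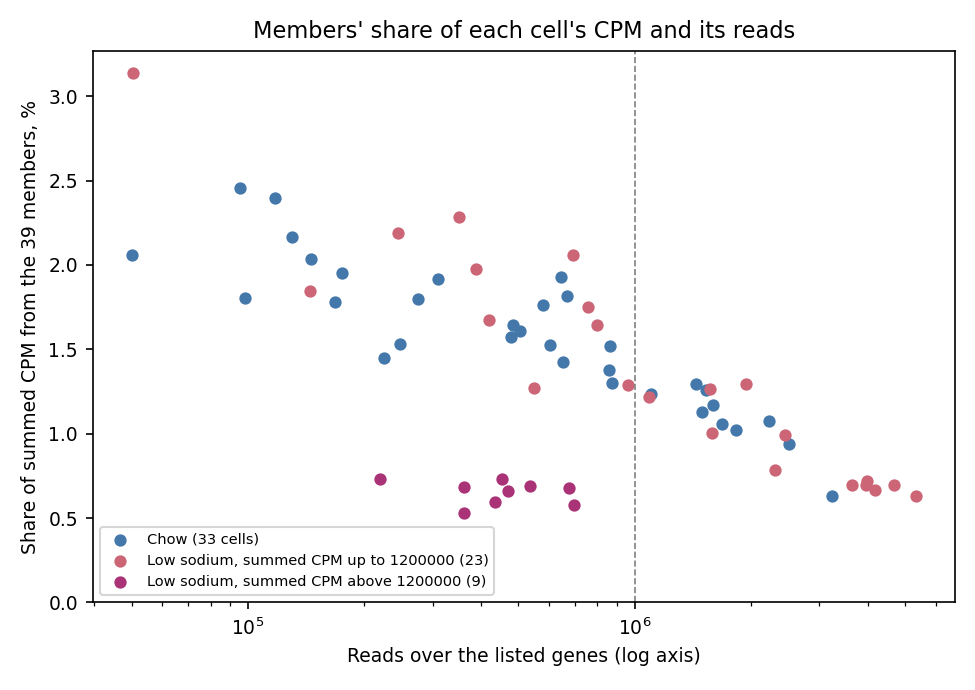
Share of each cell's summed CPM that came from the 39 members (vertical axis, %) against its reads over the listed genes (horizontal log axis), with a dashed line at 1000000 reads. Chow and usual-sum cells fall along 1 band from 3.14% to 0.630%, and the 9 high-sum cells lie at 0.531 to 0.733%, below all 34 other cells of under 1000000 reads. The share is divided by the summed CPM that set the high-sum cells apart.

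The high-sum cells differed from the other low-sodium cells by more than the diets differed. Members had a median difference of -0.98 between the 9 high-sum and 23 usual-sum low-sodium cells, and 30 of 37 were lower (54.2% of all genes, with a median of -0.14). A difference of -0.5 or beyond was found for 27 members, where 38% of genes had one, and 2 members, Atp5b and Atp5sl, were higher by 0.5 or more (31.3% of genes). In all, 7 members were higher by any amount, as were 45.8% of genes. Complexes III, IV and V had medians of -1.04, -1.09 and -1.08, and complex II had -0.07. With cells rescaled to a sum of 1000000 these medians were -1.89, -1.94 and -1.92 for III, IV and V and -0.91 for II. With median-of-ratios size factors they were -0.71, -0.76 and -0.75, and 0.26 for II, and the median over all 37 members was -0.65, with 27 lower (47.7% of all genes, with a median of 0.08). Complex II thus lay above the other complexes on each of the 3 scales, while its sign changed with the scale. Its median rests on 4 genes, from -0.97 for Sdhb to 0.49 for Sdhc on the deposited scale, with transcripts of 1142 to 3171 bases. Members of all complexes with transcripts of 1000 to 2000 bases had a median of -0.18, and those of 2000 to 4000 bases 0.25. The part that length plays in the place of complex II was not tested. The largest differences were those of Cox7c (-2.32), Atp5e (-2.01), Cox6c (-1.82), Uqcr10 (-1.80) and Atp5g3 (-1.76). The members' share of summed CPM, which does not depend on the scaling total, was 0.531, 0.679 and 0.733% as lowest, median and highest in high-sum cells, 0.630, 1.27 and 3.14% in usual-sum cells and 0.634, 1.53 and 2.46% in chow cells. All 9 high-sum cells had under 1000000 reads, and the 11 usual-sum low-sodium cells under that limit had shares of 1.27 to 3.14%. The share is divided by the summed CPM by which the high-sum cells were set apart, and shares of other gene sets are not given. Before that division the members' CPM overlapped on the deposited scale, with up to 15915 in high-sum cells and as little as 11533 in those 11 cells.

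Within this difference the members were ordered by transcript length. Across the 37 members the Spearman correlation of the difference with the length of a representative GENCODE transcript was 0.86, and 0.33 across 10425 genes. For transcripts of up to 600 bases, 12 members had a median of -1.62, and 148 genes of that length, members included, had -1.67. From 600 to 1000 bases, 10 members had -1.26 and 542 genes -1.18. From 1000 to 2000 bases, 11 members had -0.18 and 2197 genes -0.49, and from 2000 to 4000 bases 4 members had 0.25 and 4192 genes -0.10. Members up to 1000 bases therefore lay near all genes of their length. The diet difference, whose correlation with length over all cells was 0.81, had one of 0.01 across members without the high-sum cells, and there the members had medians of -0.29, -0.25, -0.34 and -0.26 in the same length classes against -0.11, -0.14, -0.13 and -0.09 for all genes.

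**Figure D4:**
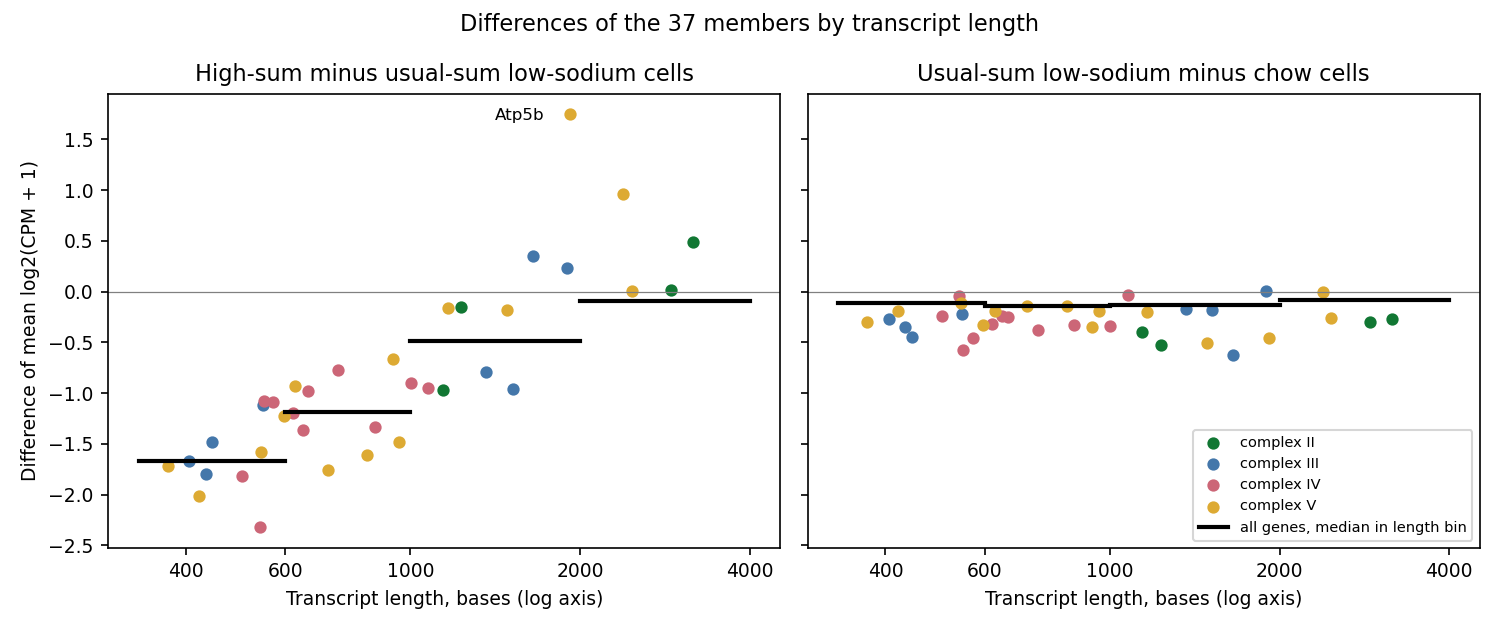
Difference of mean log2(CPM + 1) (vertical axis) against transcript length (horizontal log axis) for the 37 members, coloured by complex, with the median of all genes in 4 length classes as black lines. Left, the 12 members of up to 600 bases lie between -2.32 and -1.07 for high-sum minus usual-sum cells and Atp5b stands at 1.75; right, usual-sum cells minus chow cells, with no slope along length.

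Atp5b was the member with the highest difference between high-sum and usual-sum cells, while 11 of the 14 complex V members were lower. Its lowest, median and highest levels were 9.16, 10.72 and 11.99 in chow, 8.78, 10.18 and 11.95 in usual-sum and 11.15, 11.99 and 12.83 in high-sum cells. The high-sum cells lay in the upper part of the range or above it. The difference from usual-sum cells was 1.75, 0.89 with every cell rescaled to a sum of 1000000 and 2.08 with size factors. A difference at least as high was found for 10.3% of all 10726 genes, and for 4.01% of the 2197 genes of 1000 to 2000 bases. Atp5a1, its partner in the catalytic head, had 8.75, 9.68 and 11.05 in usual-sum and 9.45, 9.81 and 10.40 in high-sum cells, a difference of 0.01.

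The ratio of Atp5b to Atp5a1 within a cell does not depend on the scale. Its log2 value was -0.10, 0.51 and 1.24 as lowest, median and highest in chow, -0.12, 0.16 and 1.46 in usual-sum and 1.28, 2.21 and 2.57 in high-sum cells. Every high-sum cell was above every chow cell, and the lowest of them was below the highest usual-sum cell. This ratio was chosen after its values were seen, and a share over other pairs of genes is not given. It was also higher in cells with fewer reads. Under 1000000 reads, as all high-sum cells were, its median was 0.67 in chow and 0.55 in usual-sum low-sodium cells, the latter reaching 1.46. At 1000000 reads or more the medians were 0.27 and 0.05. Against Atp5c1, the gamma subunit, the log2 ratio of Atp5b was 0.85, 1.20 and 3.49 in usual-sum and 2.70, 2.96 and 4.63 in high-sum cells. The other members that were higher in high-sum cells on the deposited scale were Atp5sl (0.96), Sdhc (0.49), Uqcrc1 (0.36), Uqcrc2 (0.23), Sdha (0.01) and Atp5a1 (0.01). With cells rescaled to a sum of 1000000, Atp5sl was at 0.16 and the other 5 were below 0, at -0.37 for Sdhc to -0.85 for Atp5a1. With size factors all 6 were above 0, from 0.34 for Atp5a1 to 1.27 for Atp5sl.

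**Figure D5:**
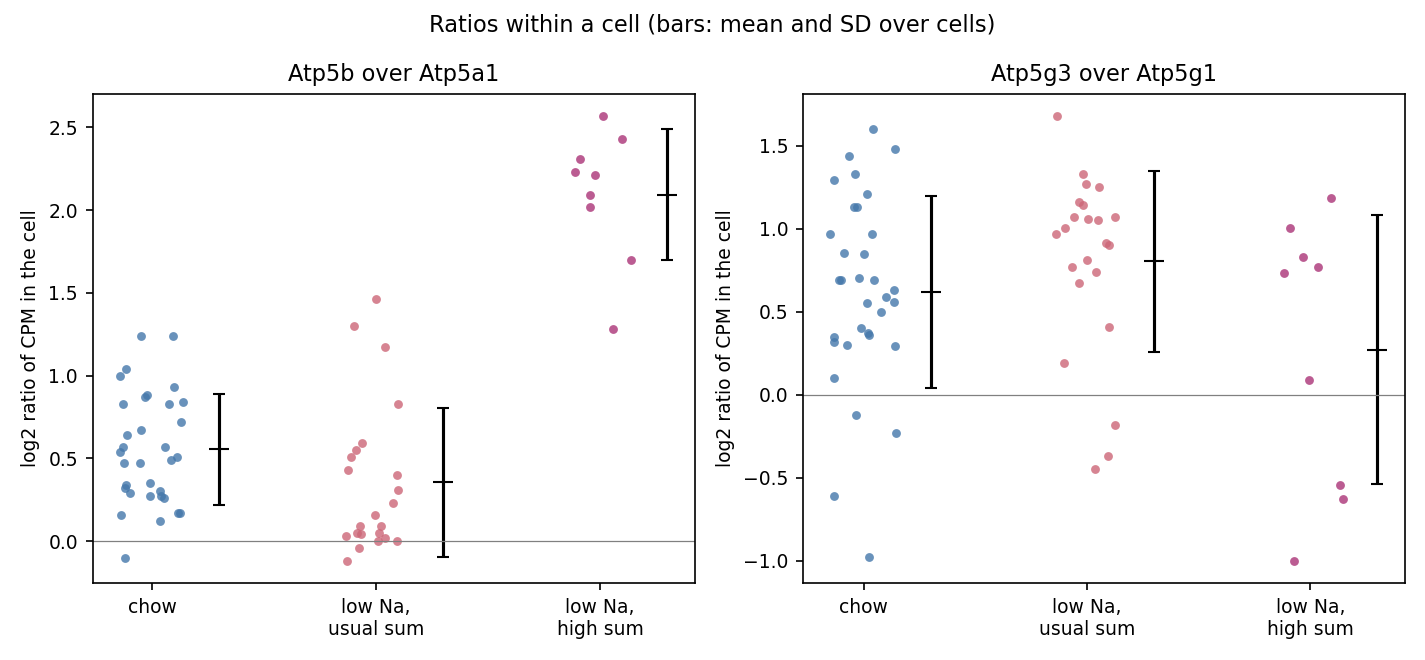
Log2 ratio of CPM within a cell (vertical axes) for Atp5b over Atp5a1 (left) and Atp5g3 over Atp5g1 (right) in chow, usual-sum and high-sum cells, with the mean and SD over cells as bars. The 9 high-sum cells lie at 1.28 to 2.57 for Atp5b over Atp5a1, where chow cells reach 1.24 and usual-sum cells 1.46. The groups overlap for the pair of subunit c genes.

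Complexes III, IV and V varied together from cell to cell, and complex II did so less. Over the 56 usual-sum cells the Spearman correlation of the complexes' mean levels was 0.86 between III and IV, 0.81 between III and V and 0.76 between IV and V, whereas complex II had 0.43, 0.22 and 0.34 with III, IV and V. These are descriptions over cells of 2 samples, and all values of a cell come from the same library. The mean of complex II covers 4 genes, against 8, 11 and 14 for III, IV and V, and Sdhd had a correlation of -0.08 with the other members. Correlations with reads were -0.71 for Sdhb, -0.20 for Sdha, -0.04 for Sdhc and 0.31 for Sdhd. The part that the number of genes and depth play was not tested. The members' mean had a correlation of 0.81 with that of 44 genes with names starting with Nduf, called complex I here. Those 44 include assembly factors, and Ndufa4, which is also in the list of further subunits described below. Complex I had medians of -0.60 between diets, -0.20 without the high-sum cells and -1.50 between high-sum and usual-sum cells, where all genes had -0.12, -0.09 and -0.14. Among 6760 other genes with a mean of at least 3, the 8 whose levels followed the members' mean most closely over the 56 cells were Ndufa11 and Chchd10 (both 0.90), Ndufa4, Gpx4 and Slc25a4 (all 0.88), Atpif1 (0.87) and Chchd2 and Ngfrap1 (both 0.86). A correlation of at least 0.8 was found for 41 genes, 9 of them Nduf genes.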

How the data were processed

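Single neurons were measured by Smart-Seq2 and Nextera XT, per the labels' protocols. The submitters' processing notes name featureCounts 1.4.6, SAMtools 0.1.19, Picard 2.5.0, HISAT2 2.0.5 and bcl2fastq, and the builds mm10 and GRCm38; the sources used here do not give settings, annotation or scaling total. The authors deposited log2 values, log2(CPM + 1) with a pseudocount of 1, per gene and cell. Of 12015 lines, 121 that share 60 names and 19 with serial numbers were kept in totals only, which left 11875 genes. CPM were recovered by undoing the log2. In every cell the smallest step was read as 1 sequencing read, worth 0.160 to 16.1 CPM, because 100% of the CPM up to 20 times that step were whole multiples of it (tolerance 0.1). Full-length libraries without molecular identifiers can over-count amplified molecules, and intervals cover counting error over cells only. Neighbouring values in a cell were a median of 0.01 apart, which limits precision.

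Differences are of mean log2(CPM + 1) over cells. With 1 sample per diet no test was run; medians and counts stand beside those of all genes with a mean of at least 1, and a difference counts from 0.5. Members and lists were chosen with earlier results of these data known. Values by diet were given for the 3 lowest and the 1 highest diet differences per complex, members above 0 in fewer than 50 cells and genes for forms of 1 subunit; Cox7c, Atp5b, Atp5a1, Atp5c1, Uqcrc1, Atp5s and Atp5sl under other comparisons were chosen after their values were seen, as were the Atp5b ratios. Lengths and copies are from GENCODE M21 (lengths for 96.4% of genes), promoters from RefSeq. The calculation was run on simulated counts with known changes. That simulation held no unknown scaling total, no high-sum cells and no shift with depth or length, so it does not bear on those. Alternatives were the scale, pseudocount, thinning, summary, cells and filter; the split at 1000000 reads and the members without near-identical copies were added after seeing the data. Python 3.11.15, pandas 2.3.3, NumPy 2.4.6, SciPy 1.17.1 and matplotlib 3.10.9 were used.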

Additional observations from a re-analysis of the deposited data

How the results depend on the processing

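Over 15 alternatives the median diet difference stayed below 0, and so did all 60 medians by complex. The alternative limit of 3 on the mean level kept the same 37 members, so it could not change the value. Among cells under 1000000 reads the median was -0.65 with the 9 high-sum cells included. The median between high-sum and usual-sum cells was -1.83 with cells rescaled to a sum of 1000000, where the median of all genes moved from -0.14 to -0.65, and -1.76 among cells under 1000000 reads. It was -0.65 with size factors, where the median of all genes was 0.08. The count of members at -0.5 or beyond, 26 of 37, stood beside 25.2% of all genes. It was 17 with size factors (21.4% of genes) and 5 as a log2 ratio of mean CPM (11.3%). Without the high-sum cells it was 4 (23.5%), and among cells of 1000000 reads or more it was 4 (32.9%). Without the high-sum cells, the median of -0.27 was 0.17 among cells under 1000000 reads; the cause was not tested. The 22 genes named by rule were recomputed under 12 of the alternatives, and 245 of 264 diet differences were below 0. These genes include those with the most negative diet differences of each complex in the same cells, so the count does not test the direction. Of all genes, 40.2% were lower as a log2 ratio of mean CPM and 67.0% with cells rescaled to a sum of 1000000, the lowest and highest shares among the alternatives. The share of cells with Atp5s, 78.5%, was 66.2% after thinning to 50000 reads, and that with Cox7a1, 23.1%, was 7.69% after thinning and 12.3% from 10 CPM. No paired analysis was possible because the neuron numbers that the diets share only name cells and the results come from no test.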

Other observations

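Other genes around the respiratory chain were described from lists by their medians between diets. Over all genes the median was -0.12, with 57.9% lower, and -0.09 without the high-sum cells, with 56.9% lower. Further subunits, carriers and cytochrome c (14 of 14 measured) had a median of -0.46 over all cells and -0.22 without the high-sum cells, and 13 of 14 (92.9%) were lower in both. The lowest were 2010107E04Rik, which encodes a small ATP synthase protein, with 7.59 ± 0.74 in chow and 6.75 ± 1.06 in low sodium, and Atpif1, the inhibitor of ATP hydrolysis by complex V, with 8.72 ± 0.77 and 7.89 ± 1.18. The highest were the outer membrane channel Vdac2 at -0.06 and the mitochondrial creatine kinase Ckmt1 at 0.06. Citric acid cycle genes (13 of 13) had -0.14, with 9 (69.2%) lower, near the values over all genes, from Suclg2 (-0.57) and Dlst (-0.49) to Idh3a (0.40) and Ogdh (0.60). Ogdh, the first subunit of the oxoglutarate dehydrogenase complex, differed by -0.19 without the high-sum cells and by 2.79 between high-sum and usual-sum cells, where the median over all genes was -0.14.

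Assembly factors of complexes II to V (28 of 36 measured) had a median of -0.15, with 19 (67.9%) lower, near the values over all genes. Without the high-sum cells they had 0.08, with 13 (46.4%) lower. The lowest were Coa6, a copper-handling factor of complex IV, with 5.18 ± 1.05 and 3.53 ± 2.27, and Bcs1l, which inserts the Rieske protein into complex III, with 5.03 ± 2.30 and 3.52 ± 2.86. The highest were Coa7 (0.66) and Lyrm7 (0.73). Regulators of mitochondrial biogenesis (13 of 14) had -0.27, with 10 (76.9%) lower, and -0.20 without the high-sum cells, with 7 (53.8%) lower. They ran from Esrra (-1.00) and Gabpb1 (-0.61) to Pprc1 (0.76) and Tfb1m (0.82), and these 4 were above 0 in 36 to 42 of 65 cells. Between high-sum and usual-sum cells the assembly factors had a median of -1.13, with 24 of 28 (85.7%) lower, where all genes had -0.14 and 54.2%. There the further subunits and carriers had a median of -0.76, the citric acid cycle genes -0.22 and the regulators 0.26.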
